A study of Rattus norvegicus with 12 samples.

Results

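In all, 10 genes of brain border fibroblasts and of collagen cross-linking were compared between CIE and Control rats: the non-collagen fibroblast genes *Dcn*, *Lum*, *Ogn*, *Slc6a13*, *Slc13a4* and *Aldh1a2*, and the lysyl oxidases *Lox*, *Loxl1*, *Loxl2* and *Loxl3*. They were chosen by gene symbol among the 37209 genes of the count file, and all 10 were found and were among the 20944 genes that passed the filter on low counts. The RNA came from punches of the central nucleus of the amygdala (CeA) of 12 male, wild type Sprague Dawley rats, 14 to 16 weeks old. The 6 rats of the CIE group (chronic intermittent ethanol, numbered 1 to 6) had breathed ethanol vapor daily over several weeks and were killed at the end of the last exposure, still intoxicated. The 6 rats of the Control group (7 to 12) had breathed air only. Vapor exposure is not voluntary drinking, and a punch of the CeA holds every cell type at that site. In such bulk RNA, fewer cells of a type and less RNA per cell cannot be told apart.

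Fibroblasts in the brain lie in the meninges and along the larger vessels that enter from the surface, outside the neural tissue proper. They lay down fibrillar collagen and the small leucine-rich proteoglycans that bind and space its fibrils, and in the meninges they also carry transporters and make retinoic acid. Lysyl oxidases are secreted copper enzymes that oxidize lysine residues of collagen and elastin, and the products react with each other to form the cross-links that make fibres stiff and insoluble.

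Levels are given as CPM, read counts scaled by library size with TMM normalization. The text compares them between rats and not between genes, since transcript lengths were not used here. The exceptions are the summed levels of lists and the choice of the most abundant markers, which rest on CPM without regard to length. Fold changes are on the log2 scale, CIE against Control, from edgeR's quasi-likelihood test over all genes tested, and negative values stand for lower levels in the CIE group. FDR is the Benjamini-Hochberg adjusted p over those genes, and a nominal p is unadjusted. Total counts lay between 61978486 and 78441691 in the CIE group and between 39082548 and 95647601 in the Control group. Of the 13 markers of central amygdala neurons all were tested, with a summed level of 2059 to 4082 CPM in the CIE group and 2259 to 4569 CPM in the Control group. Markers of cortical glutamatergic neurons stood highest in CIE rats 1, 4 and 2 and Control rat 10, at 560, 434, 420 and 327 CPM in sum, against 127 to 203 CPM in the other 8 rats. CIE rat 6 had the lowest central amygdala sum and the highest sums of mural, endothelial, astrocyte, microglia and leukocyte markers of all 12 rats. Such sums weigh abundant genes most, and single markers differed. Of mural and endothelial markers in this rat, *Notch3* (64.5 CPM), *Cspg4* (59.2 CPM) and *Slc2a1* (134 CPM) were above every Control rat. *Kcnj8* (2.07 CPM) and *Kdr* (10.4 CPM) were below every Control rat. Some results that rest on CIE rat 6, or on the rats with the most cortical marker RNA, are given with and without them, but not all.

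All 10 genes had a negative log2 fold change, or 8 of them with scaling by library size only, where *Dcn* and *Loxl3* turned positive, and 49.7% of all genes tested had one. For *Dcn*, *Loxl2* and *Loxl3* the sign also turned as single rats were left out, and most of the differences were within the spread between rats. At a nominal p below 0.05, 3 of the 10 were lower in the CIE group (*Lox*, *Loxl1* and *Slc6a13*) and 0 were higher, against 8.31% of all genes passing in either direction and 4.31% being lower. At 5% FDR in the edgeR test 0 of the 10 passed, against 0.363% of all genes (0.258% lower). DESeq2 and limma-voom each placed 1 of them, *Lox*, below 5% FDR (0.00471 and 0.0245), and each called 1.12% of the genes for which it gave an FDR. The median log2 fold change was -0.36 over the 6 fibroblast genes and -0.31 over the 4 lysyl oxidases, and 0.00 over all genes tested. Some marker lists of other cell types had medians of the same sign and similar size. They were -0.33 for choroid plexus, -0.30 for ependyma, -0.26 for leukocytes, -0.24 for endothelium and -0.23 for mural cells. The median was lower still for oligodendrocytes (-0.56) and erythroid cells (-1.65). It was smaller in size for central amygdala neurons (-0.14), microglia (-0.07) and astrocytes (-0.03), and positive for striatal (0.26) and cortical glutamatergic (1.62) neurons.

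**Figure D1:**
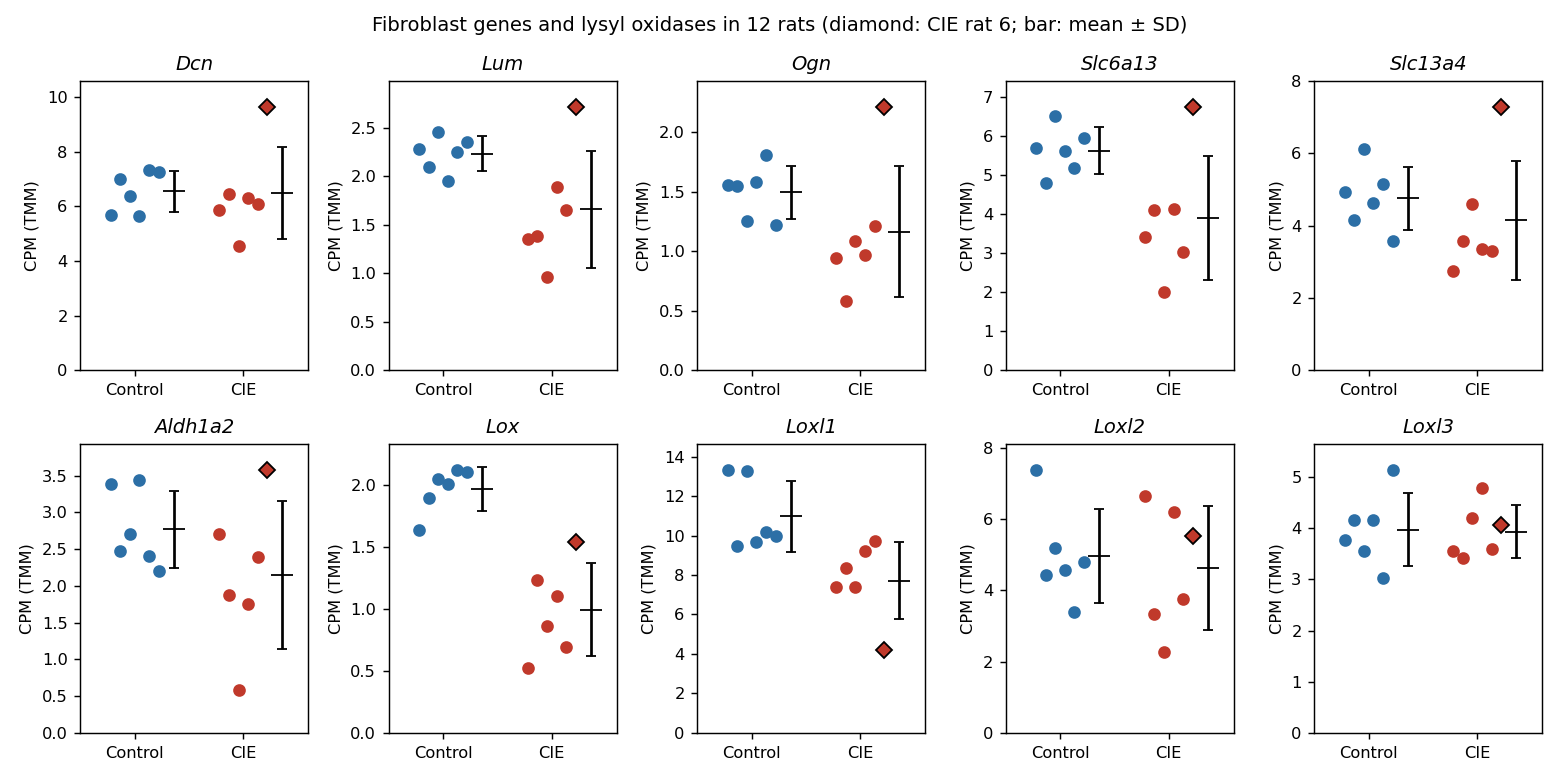
Level of each of the 10 genes in CPM (vertical axes, each starting at 0) in the 6 Control and 6 CIE rats, with 1 point per rat, CIE rat 6 as a diamond, and bars for the group mean ± SD. *Lox* alone shows no overlap of the groups, and CIE rat 6 is the highest of all 12 rats in each of the 6 fibroblast genes and the lowest in *Loxl1*.

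*Lox*, the founding enzyme of the lysyl oxidase family, showed the clearest difference. It was between 0.523 and 1.54 CPM in the CIE group, with a median of 0.983 CPM, and between 1.63 and 2.12 CPM in the Control group, with a median of 2.02 CPM. No CIE rat reached the level of any Control rat, which held for 0.893% of all genes tested in either direction and for 0.554% with the CIE group lower. The means were 0.992 ± 0.374 CPM (SD, n = 6) with ethanol vapor and 1.97 ± 0.181 CPM (SD, n = 6) with air, a level 49.5% lower in the CIE group. The log2 fold change was -0.98 (SE 0.23, 95% interval -1.48 to -0.48, edgeR FDR 0.123), at rank 146 of 20944 genes by p value. The two-sided exact permutation test of its mean log2 CPM gave p = 0.00216, the smallest that 6 rats against 6 allow. *Lox* was counted with 34 to 182 reads per rat, so each level rests on few counts. Over the 12 fits without 1 rat its log2 fold change stayed between -1.15 and -0.85 and past the nominal threshold, with an FDR from 0.0298 to 0.269. A ribosomal protein pseudogene, Rps3a-ps12, overlaps *Lox* in the GRCr8 annotation, and how reads shared by the 2 genes were counted was not tested.

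*Loxl1*, which is known for the cross-linking of elastic fibres, was between 4.19 and 9.75 CPM in the CIE group (median 7.87 CPM) and between 9.46 and 13.3 CPM in the Control group (median 10.1 CPM). All CIE rats but 1 lay under the Control range, and CIE rat 5, at 9.75 CPM, lay among the lower Control values. The difference was -0.51 on the log2 scale (SE 0.17, 95% interval -0.88 to -0.14, FDR 0.386), with an exact permutation p of 0.00649. It stayed past the nominal threshold whichever rat was left out, with log2 fold changes from -0.59 to -0.38. CIE rat 6, at 4.19 CPM, had the lowest level of all and 0.498 times the mean of the other 5 CIE rats, and the difference was smallest without it.

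*Loxl2* and *Loxl3*, members of the family whose proteins also carry scavenger receptor domains, did not pass the test. *Loxl2* was between 2.27 and 6.64 CPM in the CIE group and between 3.38 and 7.38 CPM in the Control group, with medians of 4.65 and 4.68 CPM. Its log2 fold change was -0.10 with a 95% interval from -0.64 to 0.43 (FDR 0.945), so changes of either sign remain within the error. *Loxl3* was between 3.42 and 4.79 CPM in the CIE group and between 3.02 and 5.14 CPM in the Control group. The estimate for it was -0.01 on the log2 scale with a narrower 95% interval, from -0.31 to 0.28 (FDR 0.986), and the CIE values all lay inside the Control range. In the GRCr8 annotation *Loxl3* overlaps *Htra2*, and as the strand setting of the read counting is not given in the sources used here, reads of the 2 genes may not be separated. Whether the fold changes of the 4 enzymes differ from each other was not tested. The remaining relative, *Loxl4*, was near the detection limit, with 0 to 39 counts per rat (0.172 ± 0.167 CPM, SD, n = 6, against 0.153 ± 0.0574 CPM, SD, n = 6, FDR 0.970).

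Promoter sequences of 6 of the 10 genes were in the RefSeq table (build GRCr8), and those of *Dcn*, *Slc6a13*, *Lox* and *Loxl2* were not among them. The 250 bases before the start are shown for *Loxl1* and *Loxl3*, the pair of lysyl oxidases of which 1 passed the nominal threshold and 1 did not, and for *Ogn*, the fibroblast gene with the widest spread among CIE rats in relation to its mean. Capitals mark each match, on either strand, to the motifs that were searched, the TEAD site GGAATG, the core promoter box TATAAA, the Sp1-type box GGGCGG, the hypoxia response core ACGTG and the AP-1 site TGANTCA. The windows are chr8:67612225-67612474 on the minus strand for *Loxl1*, chr4:117098108-117098357 on the plus strand for *Loxl3* and chr17:15258996-15259245 on the minus strand for *Ogn*, each written 5′ to 3′ along the gene.
Loxl1: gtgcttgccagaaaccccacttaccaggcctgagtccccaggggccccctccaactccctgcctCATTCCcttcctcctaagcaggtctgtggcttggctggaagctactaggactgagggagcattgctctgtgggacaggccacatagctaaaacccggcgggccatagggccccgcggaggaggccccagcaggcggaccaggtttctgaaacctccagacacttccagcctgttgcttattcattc
Loxl3: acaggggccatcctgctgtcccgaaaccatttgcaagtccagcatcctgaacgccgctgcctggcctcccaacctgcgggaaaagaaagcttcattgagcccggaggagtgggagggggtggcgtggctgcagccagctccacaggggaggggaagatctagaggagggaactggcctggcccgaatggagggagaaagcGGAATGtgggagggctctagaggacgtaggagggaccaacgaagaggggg
Ogn: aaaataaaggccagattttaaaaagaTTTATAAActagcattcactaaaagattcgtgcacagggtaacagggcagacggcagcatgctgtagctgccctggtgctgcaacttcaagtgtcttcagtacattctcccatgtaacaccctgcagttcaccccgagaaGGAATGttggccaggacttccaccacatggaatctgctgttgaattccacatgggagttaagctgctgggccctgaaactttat
Each of the 3 windows held 1 match to GGAATG, on the opposite strand in *Loxl1*, where 12.1% of 33469 promoter windows of this length held one. *Ogn* also held a pair of overlapping matches to TATAAA, one on each strand (12.9% of windows). The other promoters held GGGCGG in *Slc13a4* (30.5% of windows), a hypoxia response core in *Aldh1a2* (16.6% of windows) and none of the 5 motifs in *Lum*. AP-1 matches, held by 6.34% of windows, were not found in these 6. The counts of RNA say nothing of binding at these letters.

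Among the fibroblast genes the proteoglycans came out unevenly. *Dcn*, which encodes decorin, a proteoglycan that binds collagen fibrils, was between 4.54 and 9.62 CPM in the CIE group (median 6.19 CPM) and between 5.64 and 7.31 CPM in the Control group (median 6.70 CPM). The groups overlapped widely, and the log2 fold change was -0.01 with a 95% interval from -0.34 to 0.31 (FDR 0.987). *Lum*, the lumican gene and the neighbour of *Dcn* on the chromosome, was between 0.958 and 2.71 CPM in the CIE group (median 1.52 CPM) and between 1.95 and 2.46 CPM in the Control group (median 2.27 CPM). CIE rats 1 to 5 lay under the Control range and CIE rat 6 over it. The log2 fold change of *Lum* was -0.43 (SE 0.21, 95% interval -0.88 to 0.03, FDR 0.631), and its two-sided exact permutation p was 0.0390. *Ogn*, which encodes the related osteoglycin, was between 0.583 and 2.21 CPM in the CIE group (median 1.02 CPM) and between 1.22 and 1.81 CPM in the Control group (median 1.55 CPM). Its CIE values were split in the same way as those of *Lum*, 5 below and 1 above every Control rat, and its log2 fold change was -0.35 (SE 0.26, 95% interval -0.92 to 0.21, FDR 0.790). *Ogn* overlaps *Cenpp* in the annotation, and the strand setting of the read counting is not given in the sources used here.

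The transporters and the retinoic acid enzyme of meningeal fibroblasts had similar splits. *Slc6a13*, a transporter of GABA and taurine, was between 2.01 and 6.73 CPM in the CIE group (median 3.76 CPM) and between 4.78 and 6.51 CPM in the Control group (median 5.66 CPM). It was the 1 fibroblast gene of the 6 that passed the nominal threshold, with a log2 fold change of -0.52 (SE 0.22, 95% interval -0.996 to -0.05, FDR 0.549) and an exact permutation p of 0.0281. It passed in 7 of the 12 fits without 1 rat, and did not without CIE rat 1, 3 or 5 or Control rat 9 or 12. *Slc13a4*, a sulfate transporter, was between 2.75 and 7.28 CPM in the CIE group (median 3.46 CPM) and between 3.58 and 6.12 CPM in the Control group (median 4.78 CPM). Here 4 CIE rats were below every Control rat, and the log2 fold change was -0.20 (SE 0.22, FDR 0.865). *Aldh1a2*, a retinaldehyde dehydrogenase that makes retinoic acid, was between 0.587 and 3.58 CPM in the CIE group (median 2.14 CPM) and between 2.21 and 3.44 CPM in the Control group (median 2.59 CPM). Here 3 CIE rats were under the Control range, and the log2 fold change was -0.36 (SE 0.31, FDR 0.817). CIE rat 3 had the lowest level of *Aldh1a2* at 0.587 CPM (38 counts), and it also had the lowest levels of *Dcn*, *Lum* and *Slc6a13* of the CIE group.

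**Figure D2:**
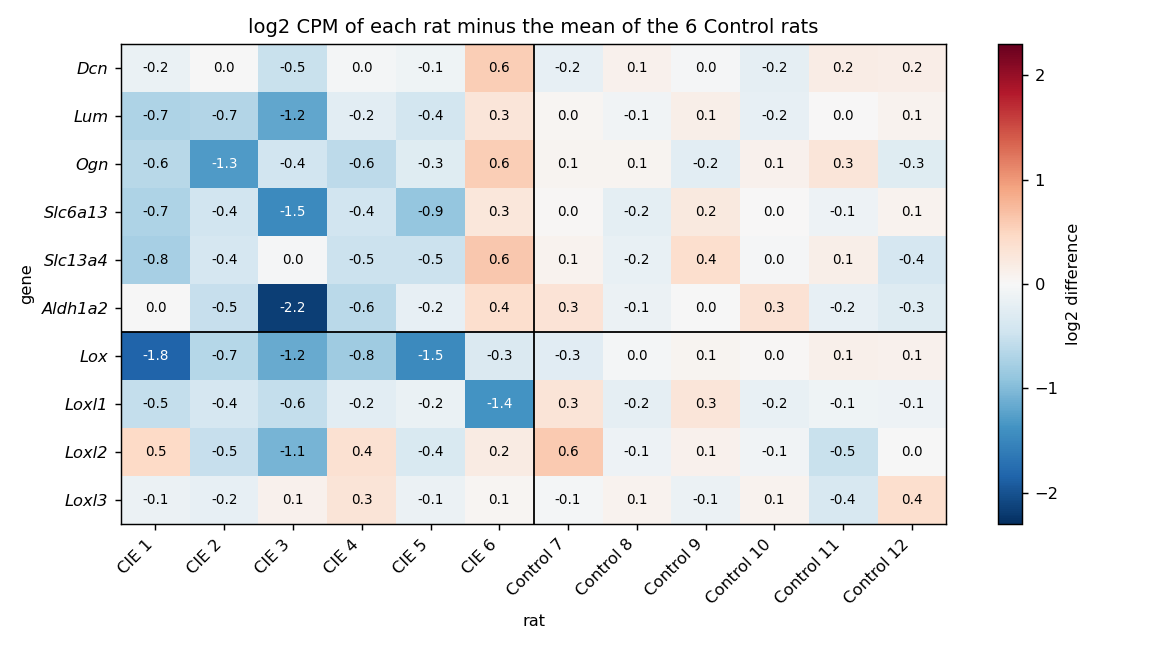
Log2 CPM of each gene (rows) in each rat (columns) minus the mean of the 6 Control rats, as colour and as numbers; the horizontal line parts fibroblast genes from lysyl oxidases. CIE rats 1 to 5 are below the Control mean in all 6 fibroblast genes and CIE rat 6 is above it in all 6, whereas *Lox* and *Loxl1* are below it in all 6 CIE rats.

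The fibroblast genes divided the CIE group by rat rather than by gene. In each of CIE rats 1 to 5 all 6 genes were below the Control mean on the log2 scale, by 0.97 on average in rat 3 and by values from 0.40 to 0.56 in the other 4. In CIE rat 6 all 6 genes were above it, by 0.45 on average, and each was at its highest level among the 12 rats. The Control rats lay between -0.11 and 0.08 on the same measure. CIE rat 6 was at 1.64 times the mean of the other CIE rats in *Dcn* and at 2.31 times in *Ogn*, with the other 4 fibroblast genes between these values. In the lysyl oxidases the same rat had no common direction, being the highest CIE rat in *Lox*, the lowest in *Loxl1*, and inside the range of the other CIE rats in *Loxl2* and *Loxl3*. Its *Lox* level, 1.54 CPM, was still below every Control rat, and 0.34 below their mean on the log2 scale.

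The number of fibroblast genes that passed depended most on CIE rat 6. Without it, 6 of the 10 genes were lower at a nominal p below 0.05, namely *Lox*, *Loxl1*, *Slc6a13*, *Lum*, *Ogn* and *Slc13a4*, where 9.26% of all genes passed in either direction and 5.2% were lower. The log2 fold change was then -0.75 in *Slc6a13* (FDR 0.0747), -0.64 in *Ogn* (FDR 0.277), -0.62 in *Lum* (FDR 0.171) and -0.43 in *Slc13a4* (FDR 0.393). Other omissions made differences smaller, to -0.16 in *Aldh1a2* without CIE rat 3, -0.22 in *Ogn* without CIE rat 2, and -0.10 and -0.11 in *Slc13a4* without CIE rat 1 or Control rat 9. Without CIE rat 6, *Aldh1a2* (-0.57, FDR 0.610) and *Dcn* (-0.16, FDR 0.757) did not pass. *Lox* reached an FDR of 0.0298, with a log2 fold change of -1.15, where 0.73% of all genes were at 5% FDR. The groups did not overlap in 4 of the 10 genes, *Lum*, *Ogn*, *Slc6a13* and *Lox*, against 1.79% of all genes in these 11 rats. In *Lum*, *Ogn* and *Slc6a13* this followed from the choice of the rat left out. With all rats kept, 5 CIE rats were below every Control rat in these genes and CIE rat 6 alone was above. The share of all genes is thus no test of them. Nor do the shares given above test the nominal calls of *Slc6a13*, *Lum*, *Ogn* and *Slc13a4* without CIE rat 6, which was the highest of all 12 rats in each. The same 6 genes passed at a nominal p below 0.05 when all 12 rats were kept and limma-voom gave each a quality weight, under which 17.2% of all genes passed and the lowest weights were those of CIE rat 3 (0.396), Control rat 10 (0.495) and CIE rat 6 (0.503). No label sets this rat apart, and it was singled out after its values were seen. In none of the 10 genes did a single rat stand apart from its group by Dixon's criterion.

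**Figure D3:**
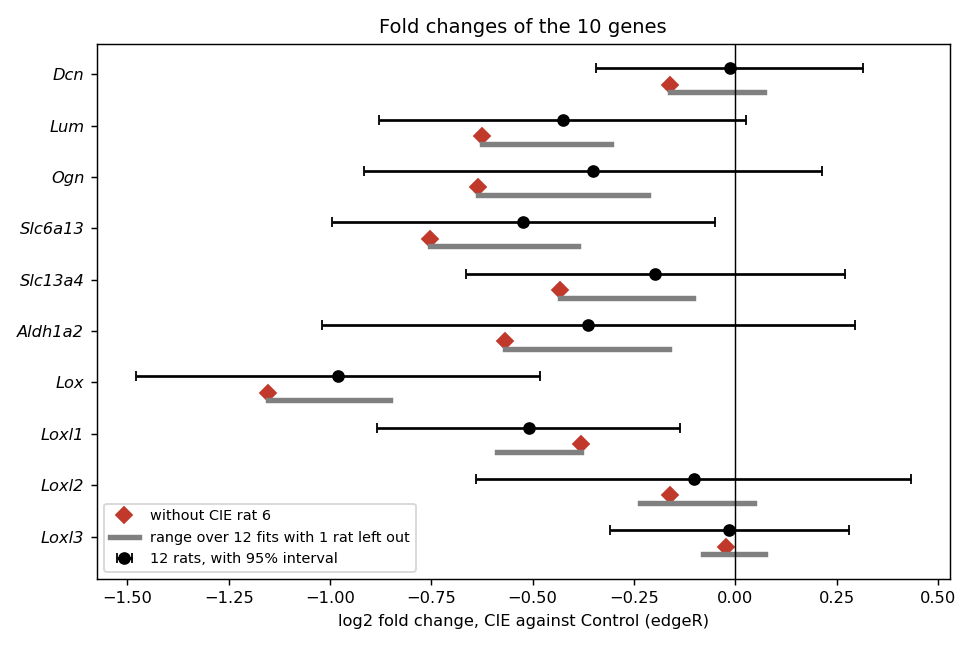
Log2 fold change of each gene, CIE against Control, from 12 rats with its 95% interval (black), without CIE rat 6 (red diamond) and as the range over the 12 fits that left out 1 rat (grey bar). The interval lies below 0 for *Lox*, *Loxl1* and *Slc6a13*, and leaving out CIE rat 6 gives the lowest value of the 12 fits for all 6 fibroblast genes and for *Lox*, and the highest for *Loxl1*.

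Leaving out the 4 rats with the most cortical marker RNA (CIE rats 1, 2 and 4 and Control rat 10), a comparison added after the values were seen, left 3 CIE and 5 Control rats, CIE rat 6 among them. *Lox* (-0.90, FDR 0.610) and *Loxl1* (-0.65, FDR 0.757) stayed below the nominal threshold, which 5.4% of all genes passed. *Slc6a13* kept its size (-0.50) but not the threshold (FDR 0.999). The sign turned in *Ogn* (0.05), *Slc13a4* (0.10), *Dcn* (0.02) and *Loxl3* (0.02).

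Among the rats of a group, the fibroblast genes varied together mainly through CIE rat 6. With group means removed, Pearson's r of log2 CPM over the 12 rats was positive in all 15 pairs of fibroblast genes, with a median of 0.53 and the highest value, 0.89, in *Lum* and *Slc6a13*. Without CIE rat 6 the median was -0.09 over 11 rats and 7 of the 15 pairs were positive, *Lum* and *Slc6a13* at 0.76 still being the highest. *Dcn*, *Lum*, *Slc6a13* and *Aldh1a2* stayed positive with one another, between 0.37 and 0.76, whereas *Ogn* and *Slc13a4* did not follow them. The 6 pairs of lysyl oxidases had a median r of -0.07, from -0.48 for *Lox* with *Loxl1* to 0.20 for *Lox* with *Loxl3*. Without CIE rat 6 their median was 0.10, and *Lox* with *Loxl1* was at 0.03. These values are descriptions, as all points share the same 12 libraries.

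Of 18369 other genes with a mean of at least 0.5 CPM, the 7 most like the mean of the 6 standardized fibroblast genes over the 12 rats, group means removed, were *Wasf2* (r = 0.96), *Golim4* (0.93), *Kif5a* (0.93), *Itpripl2*, *Tns1*, *Rbms2* and *Slc1a5* (all 0.92). Without CIE rat 6 their r was between 0.53 and 0.81. They include *Kif5a*, a kinesin gene known from neurons. *Kif5a* was at 1469 CPM in CIE rat 6, against a mean of 975 ± 263 CPM (SD, n = 6) over all CIE rats and 875 ± 49.9 CPM (SD, n = 6) over the Control rats. In the edgeR test 0 of the 7 passed the nominal threshold between the groups, and *Itpripl2* came nearest (log2 fold change -0.39, FDR 0.776). Without CIE rat 6 *Itpripl2* was at -0.72 (FDR 0.190) and passed the nominal threshold, as it did with limma-voom (-0.55).

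Other proteoglycans of the family to which *Dcn*, *Lum* and *Ogn* belong did not pass the test. Of 12 listed, 6 were tested, 0 at a nominal p below 0.05 in the edgeR fit, and the median log2 fold change was 0.05. *Bgn*, which encodes biglycan, came nearest, at 11.9 ± 2.49 CPM (SD, n = 6) with ethanol vapor and 14.0 ± 1.05 CPM (SD, n = 6) with air (-0.24 on the log2 scale, FDR 0.638), and it is named here for that value. *Omd* and *Kera*, neighbours of *Ogn* and *Lum* on the chromosome, are listed at 0 in every rat. The summed level of the 6 was again highest in CIE rat 6, at 55.2 CPM against 33.5 to 45.3 CPM in the other CIE rats and 41.0 to 49.1 CPM in the Control group.

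Among 40 further markers of meningeal or perivascular fibroblasts, 37 were tested, of which 4 were lower and 3 higher at a nominal p below 0.05. The median log2 fold change was -0.01, and 19 of the 37 had a negative one. Among the 3 higher genes was *Gjb6* (0.34, FDR 0.590), which is also on the astrocyte list. The 3 genes described next are those with the smallest p, and all were lower. *Igf2*, a growth factor made by meninges and vessels, fell from 48.8 ± 11.03 CPM (SD, n = 6) to 24.1 ± 6.17 CPM (SD, n = 6), and was the 1 gene of the list at 5% FDR (log2 fold change -1.02, FDR 0.0207). It lay between 17.2 and 33.4 CPM in the CIE group, with 29.1 CPM in CIE rat 6, and between 36.4 and 67.9 CPM in the Control group, without overlap. The call was lost without CIE rat 1, 2 or 4 or Control rat 9 (FDR up to 0.0642). *Slc22a8*, an organic anion transporter (-0.47, FDR 0.0914), and *Foxd1*, a forkhead transcription factor (-0.96, FDR 0.107), were lower past the nominal threshold only. In *Slc22a8* CIE rat 6 was again the highest of its group, at 12.04 CPM against 8.87 to 10.1 CPM. Their other known sites of expression were not weighed, and the summed level of the list ranged from 213 to 284 CPM in the CIE group and from 211 to 264 CPM in the Control group.

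The substrates of lysyl oxidases did not share a direction. Of 22 collagen, elastin and microfibril genes 21 were tested, 5 lower and 1 higher at a nominal p below 0.05, with a median log2 fold change of -0.07. *Col3a1* (log2 fold change -1.07, FDR 0.0243) and *Col1a1* (-1.04, FDR 0.0270), the chains of the main fibrillar collagens, fell at 5% FDR, each staying below it in 5 of the 12 fits that left out 1 rat. *Col1a1* lost the call without any of CIE rats 1, 2, 4 and 5 or Control rats 7, 8 and 9 (FDR up to 0.0802), and *Col3a1* without any of CIE rats 1, 2, 4 and 5 or Control rats 9, 11 and 12 (FDR up to 0.0735). *Col5a3*, a chain of a minor fibrillar collagen, was lower past the nominal threshold only (-0.52, FDR 0.0652). In CIE rat 6 *Col1a1* was at 18.4 CPM and *Col3a1* at 13.1 CPM, the highest of the CIE group in both but below every Control rat, whose lowest values were 20.9 and 13.6 CPM. In this rat the 2 collagens were thus on the same side of the Control group as *Lox*, and the 6 fibroblast genes on the other side. *Col1a2*, the partner chain of *Col1a1*, was lower past the nominal threshold only (-0.77, FDR 0.273). Another 5 fibrillar collagen genes did not pass, with log2 fold changes of 0.19 in *Col5a1*, 0.10 in *Col5a2*, 0.12 in *Col11a1*, 0.18 in *Col11a2* and -0.04 in *Col2a1*. *Eln*, which encodes elastin, the substrate linked to *Loxl1*, was lower past the nominal threshold only (FDR 0.409, 11.3 ± 2.55 CPM, SD, n = 6, against 15.0 ± 1.66 CPM, SD, n = 6), and it is named for that link.

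Genes that prepare collagen and activate the enzymes gave smaller values. Of 9 tested genes for the proteases and cofactors of lysyl oxidase and procollagen maturation, 0 had a nominal p below 0.05 in the edgeR fit. *Bmp1*, whose protease releases active lysyl oxidase from its precursor, had a log2 fold change of -0.12 (FDR 0.845). Of 17 hydroxylases and chaperones of collagen synthesis, 4 were lower and 1 higher at a nominal p below 0.05, with 0 at 5% FDR. The collagen chaperone *Serpinh1* was at 36.6 ± 3.65 CPM (SD, n = 6) with ethanol vapor and 44.8 ± 2.98 CPM (SD, n = 6) with air (-0.29 on the log2 scale, FDR 0.153). The prolyl hydroxylase subunits *P4ha1* (-0.18, FDR 0.416) and *P4ha2* (0.30, FDR 0.327) had opposite signs. Without the 4 rats with the most cortical marker RNA, *Serpinh1* (-0.17) and *P4ha1* (-0.15) did not pass the nominal threshold.

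**Figure D4:**
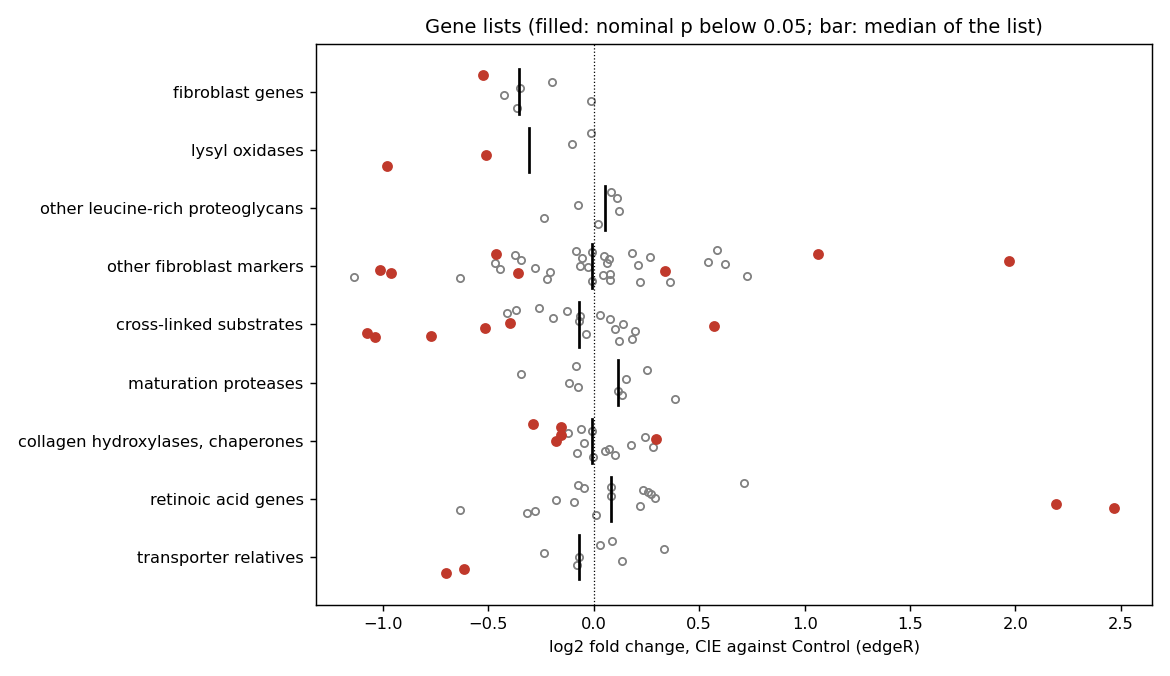
Log2 fold change of each tested gene (points, filled where the nominal p is below 0.05) in the fibroblast genes, the lysyl oxidases and 7 related lists, with a bar at the median of each list. The medians of the fibroblast genes and the lysyl oxidases lie at -0.36 and -0.31, and those of the other lists between -0.07 and 0.11.

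Relatives of *Aldh1a2* and of the transporters were measured too. Of 18 other genes of retinoic acid synthesis, breakdown and signalling, 0 were lower and 2 higher at a nominal p below 0.05, the retinoic acid hydroxylases *Cyp26a1* (2.47, FDR 0.443) and *Cyp26c1* (2.19, FDR 0.533). Without CIE rat 1 both missed the nominal threshold (1.61 and 1.55), and likewise without the 4 rats with the most cortical marker RNA (0.96 and 0.94). *Cyp26c1* passed in 7 of the 12 fits without 1 rat, failing also without CIE rat 4 or Control rat 7, 8 or 11. Both were scarce, and their highest levels, 3.98 and 2.80 CPM, were in CIE rat 1, which also had the most cortical marker RNA. Of 9 tested relatives of *Slc6a13* and *Slc13a4*, 2 were lower, the dicarboxylate transporter *Slc13a3* (-0.62, FDR 0.281) and the sulfate transporter *Slc13a1* (-0.70, FDR 0.558), the latter with 6 to 29 counts per rat. *Slc13a1* passed in 5 of the 12 fits without 1 rat, failing without CIE rat 2, 4 or 5 or Control rat 8, 9, 11 or 12, and it did not pass with DESeq2 or without the filter on low counts. Neither gene passed without the 4 rats with the most cortical marker RNA. *Slc6a11*, a GABA transporter of astrocytes that is named here as a relative of *Slc6a13* in the tissue itself, did not pass (-0.24, FDR 0.860).

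Markers of neighbouring cell types moved with these results in part. Mural markers, of pericytes and vascular smooth muscle, were lower at a nominal p below 0.05 in 7 of 14 tested genes, with *Kcnj8* at 5% FDR (log2 fold change -0.96, FDR 0.0300) and *Pdgfrb* (-0.45, FDR 0.0758) and *Rgs5* (-0.30, FDR 0.296) past the nominal threshold only. *Kcnj8* lost its call without CIE rat 1, 2 or 5 or Control rat 7, 8, 9 or 10 (FDR up to 0.0948). The 2 most abundant, *Cspg4* and *Notch3*, had log2 fold changes of 0.10 (FDR 0.826) and -0.01 (FDR 0.988, the sign turning with library size only). Their sum was 192 to 237 CPM in CIE rats 1 to 5, 297 CPM in CIE rat 6 and 237 to 269 CPM in the Control group, and *Myh11*, which defines smooth muscle, is listed at 0 in every rat. Endothelial markers were lower in 7 and higher in 2 of 17 tested genes, among them *Kdr* at 5% FDR (-0.92, FDR 0.0116, lost only without the 4 rats with the most cortical marker RNA), with a sum of 466 to 565 CPM in CIE rats 1 to 5, 635 CPM in CIE rat 6 and 498 to 617 CPM in the Control group. Myelinating oligodendrocyte markers were lower in 12 of 13, with a sum of 5804 to 9323 CPM in CIE rats 1 to 5, 14065 CPM in CIE rat 6 and 8911 to 16693 CPM in the Control group. Most different among them were *Ugt8* (-0.96, FDR 0.0727), *Cldn11* (-0.77, FDR 0.153) and *Cnp* (-0.64, FDR 0.188), and *Mbp* was the most abundant (-0.54, FDR 0.450). In the endothelial list *Eng* (-0.41, FDR 0.164) and *Pecam1* (-0.31, FDR 0.233) followed *Kdr*, and the most abundant were *Slc2a1* (0.19, FDR 0.492) and *Flt1* (-0.25, FDR 0.409). The fibroblast genes in sum were at 13.8 to 18.4 CPM, 32.1 CPM and 22.1 to 25.4 CPM in the same order. The part of these cell types in the results was not tested. Without the 4 rats with the most cortical marker RNA, *Cnp* (-0.48), *Mbp* (-0.37) and *Flt1* (-0.21) did not pass the nominal threshold.

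Blood and ventricular markers were measured as well. Of 7 erythroid genes 6 were lower at a nominal p below 0.05, 5 of them at 5% FDR, and their sum was 196 to 468 CPM in the CIE group, 325 CPM in CIE rat 6, and 583 to 1026 CPM in the Control group, so that this rat was low with the rest of its group. The 5 were *Hbb-b1* (-1.84, FDR 0.0116), *Hba2* (-1.74, FDR 0.0138), *Hba1* (-1.65, FDR 0.0207), *Hbb* (-1.61, FDR 0.0229) and the anion exchanger gene *Slc4a1* (-2.62, FDR 0.0263). Of the 12 fits without 1 rat, *Hba1* and *Hbb* kept 5% FDR in 9, both failing without CIE rat 1 or 5 or Control rat 9, and *Slc4a1* in 8, failing without CIE rat 1 or 2 or Control rat 7 or 9. *Hba1*, *Hba2*, *Hbb* and *Hbb-b1* are near-identical copies within the globin families and can share reads. Choroid plexus markers passed in 0 of 8 tested genes in the edgeR fit, with a sum of 7.33 to 12.1 CPM in the CIE group and 7.13 to 11.6 CPM in the Control group. The choroid plexus genes *Ttr* and *Kcnj13* are listed at 0 in every rat, and the most abundant tested ones, *Kcne2* and *Kl*, had log2 fold changes of 0.21 and -0.23 (FDR 0.793 and 0.863). Whether such zeros, also those of *Myh11*, *Omd* and *Kera*, stand for absent RNA or for the annotation and read counting was not tested. Ependymal markers passed in 0 of 7 tested genes, with sums of 25.6 to 34.2 CPM and 27.6 to 47.4 CPM, and their most abundant genes RGD1562658 and *Rarres2* were at -0.20 and -0.28 (FDR 0.739 and 0.826). The remaining lists had 3 of 10 astrocyte, 1 of 10 microglia, 2 of 6 leukocyte, 3 of 13 central amygdala, 2 of 9 cortical glutamatergic and 0 of 7 striatal markers at a nominal p below 0.05. These were *Aqp4* (-0.28), *Sox9* (-0.16) and *Gjb6* (0.34) of astrocytes, *Cx3cr1* (-0.28) of microglia, *Cd163* (0.77) and *Il2rg* (-1.53) of leukocytes, *Crh* (-0.45), *Tac3* (-0.37) and *Nts* (-0.46) of the central amygdala, and *Rspo2* (1.74) and *Neurod2* (1.90) of cortex. Of these *Il2rg*, a cytokine receptor chain, passed 5% FDR (0.0297), its groups not overlapping, and it lost the call in 8 of the 12 fits without 1 rat, those without CIE rat 2, 3, 4 or 5 or Control rat 8, 9, 11 or 12. The share of all genes tested at a nominal p below 0.05 was 8.31%. In the 12 fits without 1 rat, *Nts* passed this threshold in 3, *Sox9* in 4, *Neurod2* in 5, *Tac3* and *Gjb6* in 6 and *Cd163* in 7. *Aqp4*, *Cx3cr1*, *Crh* and *Rspo2* passed it in all 12. Without the 4 rats with the most cortical marker RNA, *Rspo2* (0.22), *Neurod2* (0.20), *Aqp4* (-0.16), *Sox9* (-0.12) and *Cd163* (0.53) missed it. Of the 11 list genes at 5% FDR with all rats, *Hba1*, *Hba2* and *Hbb-b1* were so without the 4 rats with the most cortical marker RNA.

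**Figure D5:**
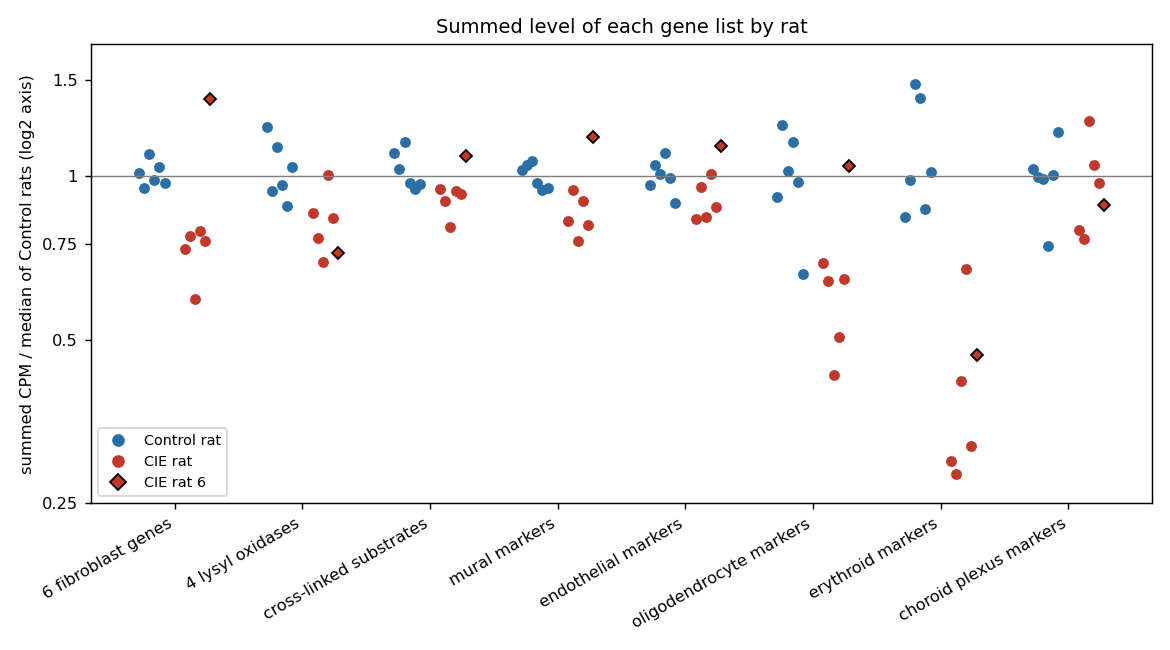
Summed CPM of each list in each rat, divided by the median of the Control rats (vertical log2 axis), for Control rats (blue), CIE rats (red) and CIE rat 6 (diamond). CIE rat 6 is above every Control rat in the sums of fibroblast genes, mural and endothelial markers, but below every Control rat in the erythroid sum.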

How the data were processed

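Poly-A RNA from CeA punches of 12 rats was sequenced by the authors with 1 library per rat. Per the paper and the labels, the authors used BWA for alignment of read pairs (genome build Rnor_6.0) and HTSeq for gene counts. What they deposited are raw counts, not normalized, and the strand and overlap settings and the annotation are not given in the sources used here. Total counts of 39082548 to 95647601 per rat set the precision of scarce genes. Replicate libraries differed by more than sampling noise.

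Counts were filtered by filterByExpr, scaled by TMM and tested with edgeR 4.0.16 (glmQLFit, glmQLFTest, two-sided, no covariates) in R 4.3.3. DESeq2, which the authors used, was an alternative. SE was taken from the fold change and F. Exact permutation tests used log2 CPM with a prior count of 2. The alternatives were DESeq2 1.42.0 with and without betaPrior, limma-voom (limma 3.58.1) with quality weights, scaling by DESeq2 size factors or by library size, dropping the filter, a minimum of 10 counts per rat, and leaving out each rat, with 1 more added after the values were seen. The scripts were tested on simulated data.

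Genes and lists were chosen with earlier results of these data known. Genes named are the 10 members, up to 3 genes of each of 21 lists with the smallest nominal p below 0.05, list genes at 5% FDR, the 2 most abundant markers of lists described in detail and the 8 genes most like the fibroblast genes, of which the last in rank, like 1 abundant marker, is not reported here, with those named after their values were seen marked as such. Of 274 listed symbols 269 were found, 8 under an older symbol. Promoters came from RefSeq (GRCr8), whose build differs from that of the counts.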

Additional observations from a re-analysis of the deposited data

Results flagged for a closer look

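In 8 of 130 groups of 6 rats, 1 rat stood apart from the other 5 by Dixon's criterion, which chance meets in about 1 in 20 groups, and 0 of the 20 groups of the 10 members did so. CIE rat 6 accounted for 3, all in genes chosen for their likeness to the fibroblast genes, with *Golim4* at 39.5 CPM (others 23.9 to 29.3), *Rbms2* at 34.1 CPM (22.2 to 26.2) and *Slc1a5* at 7.14 CPM (3.05 to 4.03). Control rat 10 stood apart in *Rspo2* at 7.83 CPM (2.32 to 2.82) and in *Kl* at 1.53 CPM (2.84 to 3.58). Control rat 9 did so in *Col1a1* at 37.1 CPM (20.9 to 23.8), Control rat 7 in *Serpinh1* at 38.9 CPM (others up to 46.9) and CIE rat 4 in *Slc13a3* at 8.73 CPM (13.9 to 16.3).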

How the results depend on the processing

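Over the leave-one-out fits, the number of genes at 5% FDR was lowest at 34 (Control rat 9 omitted) and highest at 154 (CIE rat 6 omitted) against 76 with all rats, and the number at a nominal p below 0.05 from 1347 to 2811 (without CIE rat 3) against 1740. Of the 10 members, 0 to 1 were at 5% FDR, 2 to 6 at a nominal p below 0.05 and 1 to 4 without overlap of the groups, the highest values being those without CIE rat 6. Genes at 5% FDR numbered 266 with DESeq2, 267 with betaPrior, 234 with limma-voom and 15 without the 4 rats with the most cortical marker RNA, and limma-voom gave 3596 genes at a nominal p below 0.05. Each of DESeq2, DESeq2 with betaPrior and limma-voom placed 1 member, *Lox*, at 5% FDR, and limma-voom placed 6 members at a nominal p below 0.05. Of genes at a nominal p below 0.05, 48.1% were higher in the CIE group with TMM and 60.3% with library size only. The causes of these shifts were not tested.

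Of 200 log2 fold changes of the 10 members under the alternatives, 167 kept their sign and side of the nominal threshold, 6 lost it, 6 gained it and 21 changed sign; for 55 other named genes these were 993, 83, 3 and 17 of 1096. Leaving out 1 rat gave -0.162 to 0.0710 for *Dcn*, -0.234 to 0.0451 for *Loxl2*, -0.0799 to 0.0725 for *Loxl3*, -0.162 to 0.0600 for *Notch3*, -0.0900 to 0.0337 for *Wasf2*, -0.0916 to 0.0675 for *Golim4*, -0.230 to 0.0499 for *Tns1*, -0.0343 to 0.101 for *Rbms2* and -0.125 to 0.162 for *Slc1a5*. With library size only, *Dcn* was at 0.0026, *Loxl3* at 0.0015, *Notch3* at 0.00022 and *Wasf2* at 0.0041. With limma-voom, *Loxl3* was at 0.0280, *Golim4* at -0.0082 and *Slc1a5* at -0.0012. Without the 4 rats, *Dcn* was at 0.0218, *Ogn* at 0.0455, *Slc13a4* at 0.0998, *Loxl3* at 0.0181 and *Wasf2* at 0.0174.

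No paired analysis was possible because the rat numbers are not shared between groups. Per the paper, rats shared cages and the hemisphere used was picked at random. The cage and hemisphere of each rat are not given in the sources used here, so the tests treated rats as independent. Number and group go together, so any order of handling cannot be told apart from exposure. Depth limits *Lox*, *Lum*, *Ogn* and *Aldh1a2* most, with 34 to 290 counts per rat.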
